A study of Mus musculus with 6 samples.

Results

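Genes of the connective tissue and mesothelial lining of the peritoneum were followed in peritoneal cells of mice with and without NF-IL6. The 10 genes were taken from a fixed list, namely the fibrillar collagens Col1a1, Col1a2 and Col3a1, the collagen chaperone Serpinh1, the small leucine-rich proteoglycans Dcn, Lum and Bgn, the matricellular protein Sparc, and the keratins Krt8 and Krt19. They are 10 of 8251 genes named on the array, and 16 of its 12422 probe sets carry the symbol of 1 of them alone in the platform annotation. These genes, like the other lists below, were chosen with earlier results of these data known. A probe set is a group of short probes on the array that together report 1 signal for a transcript. The cells came from C57BL/6 mice of 3 genotypes: a knock-in line labelled KI(LAP) (KI), mice lacking NF-IL6 (KO), and wild type (WT). NF-IL6 is the transcription factor C/EBPβ, and LAP is its activating form. Each genotype was measured after lipopolysaccharide (LPS) with interferon-γ and without treatment, with 1 array for each of the 6 groups. The labels give 12 h of stimulation for KI and KO cells and no time for WT cells. They do not say how many mice gave cells to an array, or the sex of the mice. They also do not say what cell populations the knock-in or deletion covers, or which batch an array belongs to. Each group is thus a single array with no replicate, and this small number limits the precision of every value below. The labels call the cells peritoneal macrophages or PECs. All 9 measured macrophage markers, Lyz2 and Cd68 among them, lay above the floor on every array. The floor is a signal of 98.0, the 40th percentile of all values, under which signals were given no order. Cebpb, the gene of NF-IL6, had 5890 in stimulated and 2284 in untreated KI cells and 59.0 and 12.7, under the floor, in KO cells, against 9329 in stimulated and 5492 in untreated WT cells.

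The fibrillar collagens are the ropes of connective tissue. Their α chains are made in the endoplasmic reticulum, where the collagen-specific chaperone encoded by Serpinh1 (HSP47) binds the folded triple helix, and type I collagen joins chains from Col1a1 and Col1a2 while type III collagen is made of Col3a1 chains alone. Decorin (Dcn), lumican (Lum) and biglycan (Bgn) carry leucine-rich repeats and bind collagen fibrils or growth factors, and Sparc (osteonectin) is a secreted collagen-binding protein that modulates contact between cells and matrix. Fibroblasts are the usual source of these genes. Krt8 and Krt19 encode filament proteins of simple epithelia and of the mesothelium, the cell layer that lines the peritoneal cavity from which the cells were taken.

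RefSeq windows from 250 bases before to 50 after the start site were at hand for 6 of the 10 genes, on GRCm38.p6. The windows of Col1a2, Serpinh1 and Bgn are shown because these genes had a like pattern over the arrays, and that of Sparc because its pattern was another one. Capitals mark every match, on either strand, to the motifs searched. These were the TATA box TATAAA, the CCAAT box, the C/EBP motif TTGCNNAA, the heat shock element core GAANNTTC, the GC box GGGCGG, the AP-1 motif TGANTCA and the interferon-γ activated site TTCNNNGAA.
Col1a2, chr6:4505368-4505667, plus strand: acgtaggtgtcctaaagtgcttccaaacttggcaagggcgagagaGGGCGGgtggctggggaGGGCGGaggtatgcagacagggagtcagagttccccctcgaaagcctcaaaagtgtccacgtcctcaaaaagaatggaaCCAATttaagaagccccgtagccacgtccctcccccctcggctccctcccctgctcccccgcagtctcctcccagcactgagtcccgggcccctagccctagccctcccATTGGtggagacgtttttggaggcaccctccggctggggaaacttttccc
Serpinh1, chr7:99353190-99353489, minus strand: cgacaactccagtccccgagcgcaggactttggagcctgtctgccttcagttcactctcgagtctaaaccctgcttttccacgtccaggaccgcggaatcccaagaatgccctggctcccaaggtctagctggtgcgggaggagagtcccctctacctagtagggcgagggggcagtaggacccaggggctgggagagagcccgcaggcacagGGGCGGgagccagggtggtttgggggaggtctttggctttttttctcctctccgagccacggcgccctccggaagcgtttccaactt
Bgn, chrX:73483351-73483650, plus strand: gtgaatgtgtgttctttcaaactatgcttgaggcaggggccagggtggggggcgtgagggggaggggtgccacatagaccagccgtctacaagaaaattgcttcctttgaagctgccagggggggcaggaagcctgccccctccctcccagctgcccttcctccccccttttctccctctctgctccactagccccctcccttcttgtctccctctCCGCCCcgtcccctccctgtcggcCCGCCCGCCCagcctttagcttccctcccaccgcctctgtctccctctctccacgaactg
Sparc, chr11:55420031-55420330, minus strand: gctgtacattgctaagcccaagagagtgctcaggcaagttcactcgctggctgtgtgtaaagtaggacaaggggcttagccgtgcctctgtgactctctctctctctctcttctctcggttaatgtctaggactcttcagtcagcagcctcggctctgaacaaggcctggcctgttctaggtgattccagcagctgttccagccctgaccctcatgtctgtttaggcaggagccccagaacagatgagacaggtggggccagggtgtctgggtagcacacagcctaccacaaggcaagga
The GC box, a binding sequence of Sp1-type factors, occurred 2 times in the Col1a2 window, 1 time in that of Serpinh1 and 3 times in that of Bgn, where 2 matches overlap. It was thus in 3 of the 6 windows, and in 35.7% of all 32851 windows of this length. The CCAAT box occurred in 1 of the 6 windows, that of Col1a2, and in 37.4% of all windows. TATAAA was found in the Col3a1 and Krt8 windows, which are not printed, and in 13.6% of all windows. The C/EBP motif was in 0 of the 6 windows and in 10.8% of all. The heat shock core, the AP-1 motif and the interferon-γ activated site were also in 0 of the 6, and in 7.86%, 7.81% and 8.30% of all windows. A match describes these letters only.

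Of the 16 probe sets, 5 lay above the floor on all 6 arrays, 6 on 4 arrays, 1 on 2 arrays and 4 on none. The 12 that exceeded the floor on at least 1 array, which represent 9 of the 10 genes, were tested among 9344 such probe sets with an additive limma fit of genotype and stimulation over the 6 arrays. Since 1 array stood for each group, the error of this fit holds differences in response between genotypes and has 2 residual degrees of freedom. None of the 12 passed an adjusted p of 0.05 in any of the 4 contrasts. The lowest limma adjusted p among them was 0.229 for stimulation, 0.432 for KO against WT, 0.224 for KI against WT and 0.615 for KI against KO. At an unadjusted p under 0.05, limma counted 0, 5, 5 and 1 of the 12. Over all 9344 tested probe sets, 11.0% passed for stimulation, 0% for KO against WT, 0.0107% for KI against WT and 0% for KI against KO. At an unadjusted p under 0.05, limma counted 2542 of the 9344 for stimulation. For these genotype contrasts it counted 946, 1598 and 703 of the 9344. The differences described below are therefore differences between single arrays. They cannot be set against a spread between replicates, and in bulk RNA fewer cells of a type and less RNA per cell cannot be told apart.

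**Figure D1:**
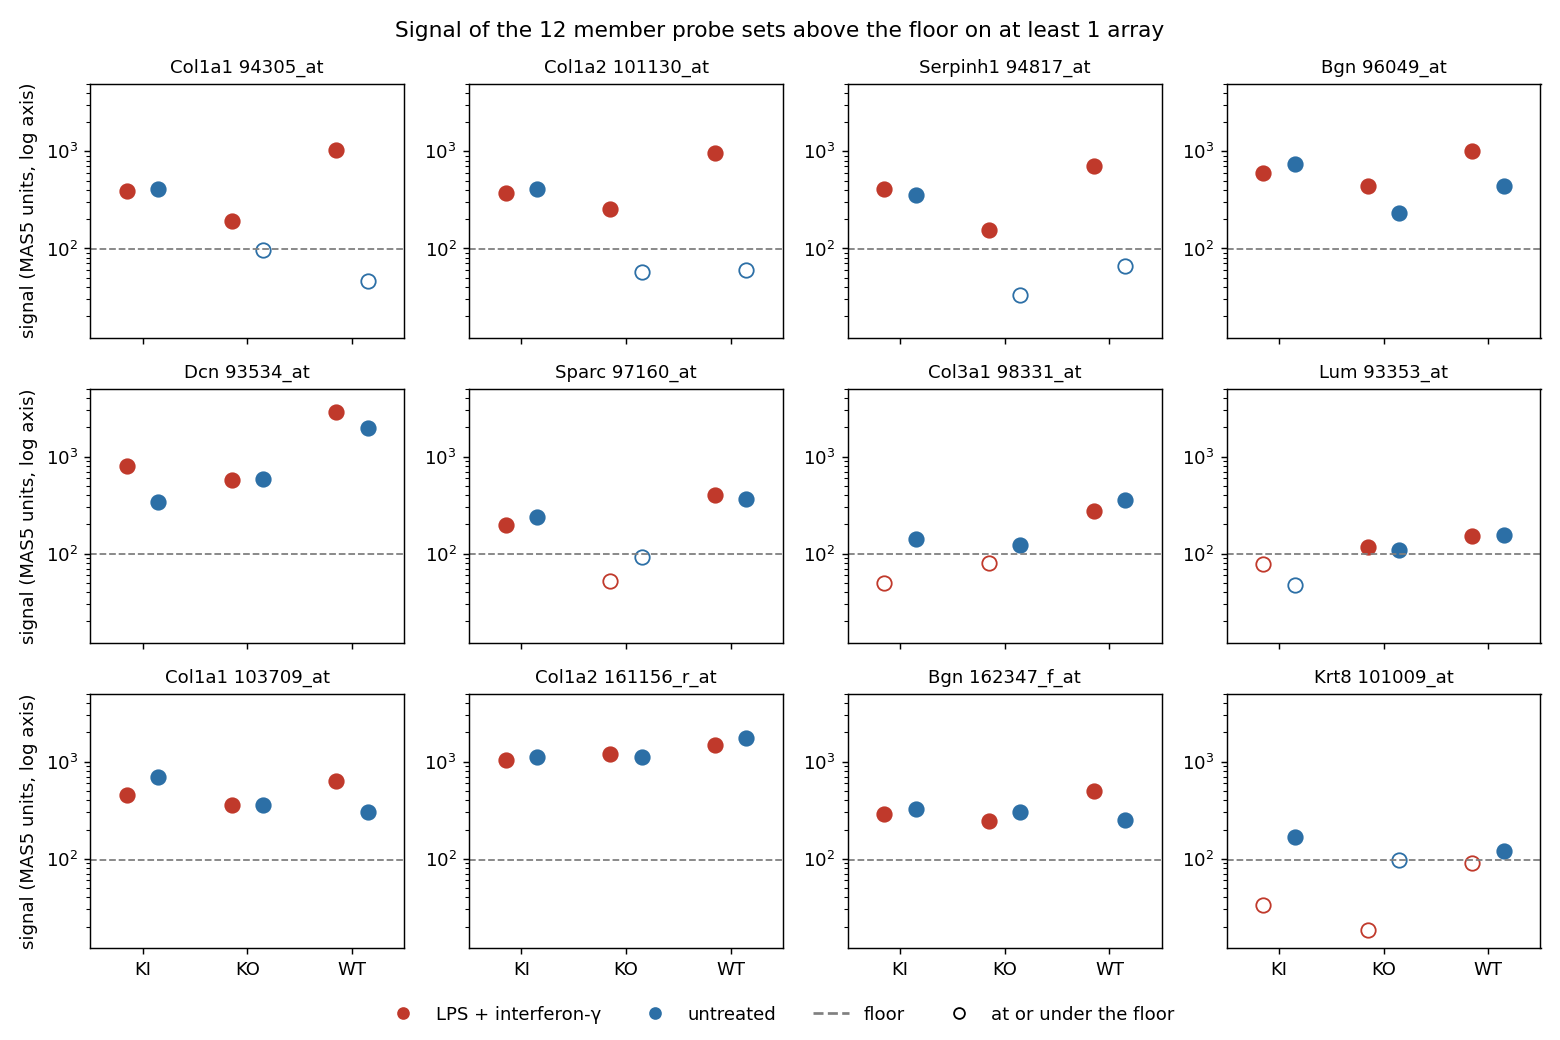
Signal of 12 probe sets (log axis, MAS5 units) in KI, KO and WT cells, after LPS with interferon-γ (red) and untreated (blue), 1 point per array. The dashed line is the floor, a signal of 98.0, and open points lie at or under it. In the upper row the stimulated WT array is highest in all 4 panels, and in the middle row both WT arrays lie above the KI and KO arrays.

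The largest changes with stimulation were in WT cells, for a single probe set of each type I collagen chain and for the chaperone gene Serpinh1. In WT cells the other probe set of each chain, described below, changed less or in the other direction. The probe set 94305_at of Col1a1, which encodes the α1 chain of type I collagen, had a signal of 393 in stimulated and 411 in untreated KI cells. It had 194 in stimulated and 95.5 in untreated KO cells, against 1030 in stimulated and 46.2 in untreated WT cells. The stimulated WT array was highest, both KI arrays lay together below it, and the untreated KO and WT arrays were under the floor. In KI cells the stimulated signal was 1.04-fold lower than the untreated one. Stimulated KO cells had at least 1.98-fold the signal of untreated KO cells, and stimulated WT cells at least 10.5-fold that of untreated WT cells. Over the 3 genotypes the mean log2 change with stimulation was 1.44 (SE 0.68, limma adjusted p = 0.255), and 0.46 without either WT array and 2.19 without either KI array.

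Col1a2, which encodes the partner chain of type I collagen, was read with probe set 101130_at at 373 in stimulated and 415 in untreated KI cells. The same probe set had 254 in stimulated and 56.8 in untreated KO cells, against 974 in stimulated and 59.6 in untreated WT cells. The arrays thus stood in the same order as for Col1a1, apart from the untreated KO and WT arrays, which were under the floor for both genes and have no order there. In KI cells Col1a2 was 1.11-fold lower after stimulation, while stimulated KO cells had at least 2.59-fold and stimulated WT cells at least 9.94-fold the untreated signal of their genotype. The mean log2 change was 1.51 (SE 0.67, limma adjusted p = 0.229), the lowest adjusted p of the 12 probe sets for stimulation. It was 0.61 without either WT array and 2.34 without either KI array.

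Serpinh1, whose product accompanies procollagen through the secretory pathway, gave a signal of 415 in stimulated and 352 in untreated KI cells. Its signal was 155 in stimulated and 33.1 in untreated KO cells, against 711 in stimulated and 66.2 in untreated WT cells. As for both type I chains, the untreated KO and WT arrays were under the floor and the stimulated WT array was the highest. Stimulation went with a signal 1.18-fold higher in KI, at least 1.58-fold higher in KO and at least 7.26-fold higher in WT cells. Averaged over genotypes, its log2 change was 1.25 with an SE of 0.56, and limma gave an adjusted p of 0.231. This change was 0.45 without either WT array and 1.76 at most, without either KI array. With a pseudocount of 50 in place of the floor, Serpinh1 passed the test for stimulation (mean log2 change 1.41, limma adjusted p = 0.0389). That setting also let more of all probe sets pass, and Serpinh1 passed in no other setting.

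The brighter probe set of Bgn, 96049_at, reports a proteoglycan of bone and soft connective tissue. It had 593 in stimulated and 745 in untreated KI cells. It had 438 in stimulated and 231 in untreated KO cells, against 1014 in stimulated and 442 in untreated WT cells. All 6 arrays were above the floor, with stimulated WT highest and untreated KO lowest. With stimulation this signal was 1.26-fold lower in KI cells, 1.90-fold higher in KO cells and 2.29-fold higher in WT cells. The mean over genotypes was a log2 change of 0.60 (SE 0.34), with a limma adjusted p of 0.336, and it ranged from 0.30 to 1.06 when 1 array was left out.

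A size of 1 on the log2 scale, a doubling, was used to count single-array differences. In KI cells 1 of the 12 tested probe sets, Dcn, was higher by that size after stimulation, beside 5.58% of all tested probe sets. In KO cells it was 1 of the 12, Col1a2 101130_at, beside 6.54% of all. In WT cells 5 of the 12 reached it, beside 8.54% of all, namely the 4 just described and Col1a1 103709_at. The median log2 change of the 12 was -0.17 in KI, 0.04 in KO and 0.77 in WT cells, beside medians of 0, -0.05 and -0.12 over all tested probe sets. The difference in response between genotypes could not be tested with 1 array per group. The WT response and a WT stimulation time other than that of KI and KO cells cannot be told apart. The labels also give no sex of the mice and no batch. A difference in these between the untreated and stimulated WT arrays cannot be told apart from the response either.

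**Figure D2:**
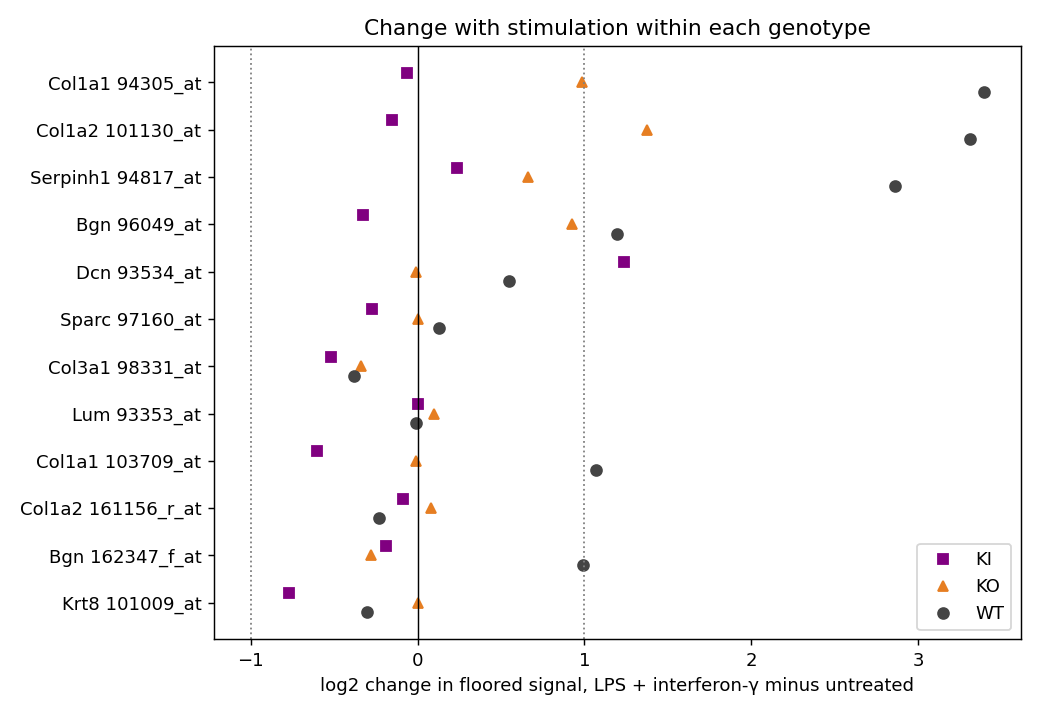
Log2 change in floored signal, LPS with interferon-γ minus untreated, within KI (squares), KO (triangles) and WT (circles), for 12 probe sets; each symbol is the difference of 2 arrays, and dotted lines mark 1 on the log2 scale. The WT circles of Col1a1 94305_at, Col1a2 101130_at and Serpinh1 lie at 3.39, 3.31 and 2.86, while the KI squares of these genes lie at -0.06, -0.15 and 0.24.

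For these genes the genotype differences between single arrays were set out for each state. In stimulated cells, Col1a1 94305_at was 2.62-fold lower in KI and 5.31-fold lower in KO than in WT. Col1a2 101130_at was 2.61-fold lower in KI and 3.83-fold lower in KO than in WT. Serpinh1 was 1.71-fold lower in KI and 4.59-fold lower in KO than in WT. In untreated cells the KI signals of Col1a1 94305_at, Col1a2 101130_at and Serpinh1 were at least 4.19-fold, 4.23-fold and 3.59-fold higher than the WT signals, which were under the floor. Untreated KO and WT cells were both under the floor for the 3 probe sets, so no fold is given. Whether a genotype difference changed with state could not be tested.

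A second pattern was a higher signal in WT cells in both states. Dcn, decorin, had a signal of 794 in stimulated and 337 in untreated KI cells. It had 578 in stimulated and 582 in untreated KO cells, against 2880 in stimulated and 1967 in untreated WT cells. Both WT arrays lay above all KI and KO arrays. The KI signal was 3.63-fold lower than WT after stimulation and 5.83-fold lower in untreated cells, and the KO signal 4.99-fold and 3.38-fold lower. The mean log2 difference was -2.20 for KI against WT (SE 0.33, limma adjusted p = 0.224) and -2.04 for KO against WT (SE 0.33, limma adjusted p = 0.432). Using the pseudocount of 50 in place of the floor, Dcn passed for KI against WT (-2.09, limma adjusted p = 0.019). More of all probe sets also passed with that setting, and Dcn passed in no other. Stimulated KI cells had 2.35-fold the untreated KI signal and stimulated WT cells 1.46-fold the untreated WT signal, while both KO arrays differed by 1.01-fold.

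For Sparc the KI arrays lay between the others. Its signal was 196 in stimulated and 237 in untreated KI cells. The KO arrays gave 51.9 and 91.3, both under the floor, against 404 in stimulated and 370 in untreated WT cells. WT was highest, KI between and KO lowest in both states. How many of all tested probe sets had this order is not given, so it is a description only. KO cells were at least 4.12-fold lower than WT after stimulation and at least 3.77-fold lower without it, and KI cells 2.06-fold and 1.56-fold lower. KI cells were at least 2.001-fold higher than KO cells after stimulation and at least 2.42-fold higher without it. The mean log2 difference was 1.14 for KI against KO (SE 0.28, limma adjusted p = 0.615) and -1.98 for KO against WT (SE 0.28, limma adjusted p = 0.432). Both KO signals stand at the floor in these values, which therefore depend on it. A lower floor, the 20th percentile, gave 1.65 and -2.49, and a higher one, the 60th, gave 0 and -0.62. The mean change of Sparc with stimulation was -0.05 (SE 0.23, limma adjusted p = 0.911).

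Col3a1, the chain of type III collagen, was measurable with 1 of its 3 probe sets, 98331_at. This had 49.997 in stimulated and 141 in untreated KI cells. The KO arrays gave 80.1 and 124 in the same states, against 276 in stimulated and 360 in untreated WT cells. Both WT arrays were higher than the other 4, and the stimulated KI and KO arrays were under the floor. KI and KO cells were each at least 2.82-fold lower than WT after stimulation, and untreated cells were 2.56-fold lower in KI and 2.91-fold lower in KO. Its mean log2 change with stimulation was -0.41 (SE 0.19, limma adjusted p = 0.238), with a lower floored signal after stimulation in each of the 3 genotypes. The other probe sets of Col3a1, 102990_at and 161984_f_at, stayed between 2.70 and 92.9, under the floor on every array.

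Lum, lumican, lay close to the floor. Its signal was 78.9 in stimulated and 47.7 in untreated KI cells and 116 and 108 in KO cells, against 153 in stimulated and 154 in untreated WT cells. Both KI arrays were under the floor, and both WT arrays were highest. KI cells were at least 1.56-fold lower than WT after stimulation and at least 1.57-fold lower without it (mean log2 difference -0.65, SE 0.15, limma adjusted p = 0.224). Both WT arrays lay above all 4 KI and KO arrays for 5 of the 12 tested probe sets, namely Dcn, Sparc, Col3a1 98331_at, Lum and Col1a2 161156_r_at, beside 12.9% of all tested.

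**Figure D3:**
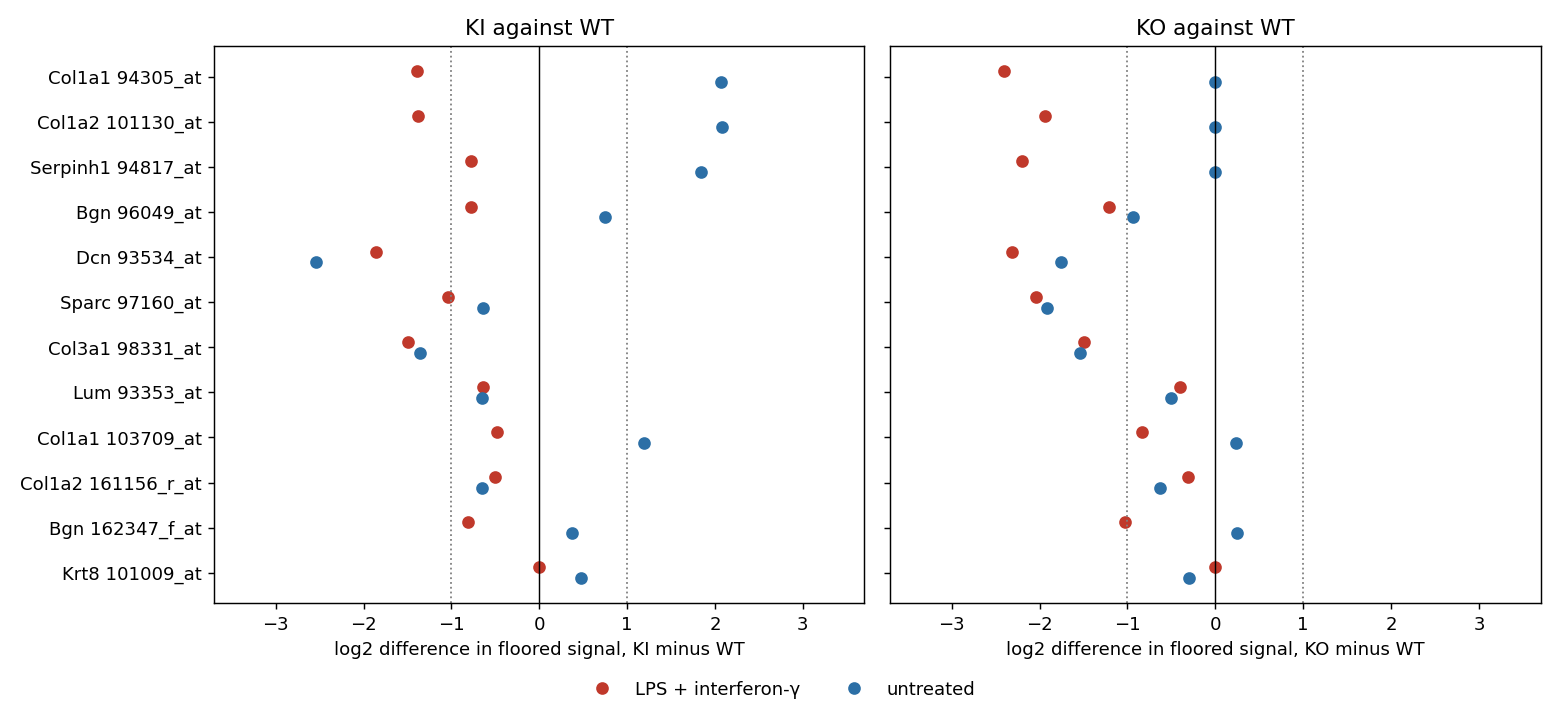
Log2 difference in floored signal, KI minus WT (left) and KO minus WT (right), after LPS with interferon-γ (red) and untreated (blue), for 12 probe sets with 1 array per group; dotted lines mark 1 on the log2 scale. Both points of Dcn lie between -2.54 and -1.76 in either panel, whereas Col1a1 94305_at lies at -1.39 after stimulation and 2.07 untreated in the KI panel; points at 0 can stand for signals under the floor on both arrays.

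Counted by state with the same size of 1, 5 of the 12 tested probe sets were lower in stimulated KI than in stimulated WT cells, beside 4.92% of all tested probe sets. For stimulated KO against WT cells 8 of the 12 were lower, beside 3.24% of all, with a median difference of -1.35 for the 12 and 0 for all. Both probe sets of Bgn are among these 8. In untreated cells 4 of the 12 were higher in KI than in WT, beside 8.12% of all, while Dcn and Col3a1 98331_at were lower by the folds given above. Untreated KO cells were lower than WT for 3 of the 12, Dcn, Sparc and Col3a1 98331_at, beside 4.30% of all. KI was higher than KO for 3 of the 12 after stimulation, beside 1.49% of all, and for 5 of the 12 in untreated cells, beside 2.84%. Both counts depend on the floor. The 3 after stimulation were Serpinh1 (1.42), Col1a1 94305_at (1.02) and Sparc (1.0007). With the 60th percentile floor these differences were 0.72, 0.65 and 0. Of the 5 in untreated cells only Bgn 96049_at, at 1.57, then stayed above 1. None of the 12 was lower in KI than in KO by this size in either state. No share of all probe sets is given for that direction, or for lower in untreated KI than in WT. Neither count is therefore read as a result. These comparisons share arrays, since each WT array serves for KI and KO, and the 12 were reached through the floor. The genes were also chosen with earlier results of these data known, so the shares beside them are no test. The counts are a description.

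Different probe sets of a gene did not always move alike. The Col1a1 probe set 103709_at had 456 in stimulated and 693 in untreated KI cells and 357 and 359 in KO cells, against 637 in stimulated and 304 in untreated WT cells. It shared with 94305_at a higher signal after stimulation in WT cells, here 2.09-fold, and a higher untreated signal in KI than in WT cells, here 2.28-fold. Its highest array was untreated KI, not stimulated WT. The Col1a2 probe set 161156_r_at stayed between 1042 and 1740 on all 6 arrays and went against 101130_at, with 1481 in stimulated and 1740 in untreated WT cells. The suffix r marks a probe set for which some of the usual probe selection rules were dropped, and the suffix f one whose probes may match several related sequences. Bgn 162347_f_at had 288 in stimulated and 328 in untreated KI cells and 247 and 300 in KO cells, against 503 in stimulated and 253 in untreated WT cells. As on the other Bgn probe set, stimulated WT was the highest array.

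The keratins gave little signal. Krt8 had 33.3 in stimulated and 167 in untreated KI cells and 18.6 and 96.2 in KO cells, against 91.2 in stimulated and 121 in untreated WT cells. Only the untreated KI and WT arrays were above the floor, so the untreated signal was the higher one in KI and in WT cells and had no order in KO cells (mean floored log2 change of -0.36, SE 0.18, with a limma adjusted p of 0.277). Krt19 was under the floor on all arrays with both of its probe sets, with signals from 5.0 to 27.3. The mesothelial side of the gene list thus rested on Krt8 alone.

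Markers of the cell types that could carry these genes were examined on the same arrays. Of 6 measured mesothelial markers, 1 was above the floor in stimulated and 1 in untreated KI cells, 1 and 2 in KO cells, and 2 and 3 in WT cells. Their summed signal was 393 in stimulated and 467 in untreated KI cells, 471 and 551 in KO cells, and 613 and 801 in WT cells. These sums, like the other marker sums below, include signals under the floor as measured. Their order thus rests in part on signals that were given none. Upk3b, a urothelial and mesothelial membrane protein, was the brightest, and Msln, mesothelin, and Krt7 were under the floor on every array. Of 17 measured fibroblast markers, 6 and 5 were above the floor in stimulated and untreated KI cells, 6 and 5 in KO cells, and 8 and 10 in WT cells. Over all 12422 probe sets, 55.7% and 57.4% were above the floor in stimulated and untreated KI cells, 59.0% and 61.2% in KO cells, and 61.2% and 65.8% in WT cells. The summed signal of the 17 markers was 2183 in stimulated and 6190 in untreated KI cells and 2155 and 4877 in KO cells, against 2987 in stimulated and 5139 in untreated WT cells, so that untreated KI cells were highest. Gsn, an actin-severing protein that many cells express, was the brightest of the list, with 643 and 4414 in KI cells and 675 and 3288 in KO cells, against 402 in stimulated and 2141 in untreated WT cells. Without Gsn the sum was 1540 in stimulated and 1776 in untreated KI cells and 1480 and 1589 in KO cells, against 2585 in stimulated and 2999 in untreated WT cells. Pdgfrb and Thy1 were under the floor on every array. The sum was thus highest on both WT arrays only when Gsn was left out, a choice made after its values were seen. No marker was listed at 0. The summed signal of 7 smooth muscle and pericyte markers was 614 in stimulated and 1015 in untreated KI cells and 727 and 686 in KO cells, against 1307 in stimulated and 1167 in untreated WT cells. Blood cell markers also differed between the arrays. The summed signal of 7 neutrophil markers was 624 in stimulated and 1203 in untreated KI cells and 954 and 910 in KO cells, against 1920 in stimulated and 1570 in untreated WT cells. S100a8 was the brightest of these, and S100a9 and Ngp were under the floor on every array. Without S100a8 the sum was 413 and 647 in KI cells and 677 and 714 in KO cells. It was then 847 in stimulated and 1063 in untreated WT cells. The summed signal of 6 B cell markers was 1892 and 1679 in KI cells and 2813 and 6018 in KO cells, against 3624 in stimulated and 6981 in untreated WT cells. Of 3 erythroid markers, the haemoglobin gene Hba-a1 was the brightest, with 141 and 128 in KI cells and 835 and 1158 in KO cells, against 1207 in stimulated and 1843 in untreated WT cells. In the endothelial and dendritic cell lists no WT array was highest. The 9 endothelial markers summed to 2648 in stimulated and 2606 in untreated KI cells and to 4055 and 2228 in KO cells. In WT cells they summed to 3066 in stimulated and 1719 in untreated cells. For 5 dendritic cell markers the sum was 3970 and 7943 in KI cells and 4481 and 2956 in KO cells. It was 2743 in stimulated and 1904 in untreated WT cells. Sums of the remaining lists are not given. The part of any of these cell types in the differences was not tested.

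Other collagen chains were compared as a fixed list. Of 16 chains, 15 were on the array and 14 were tested, and 0 of the 14 passed limma's test in any contrast. The median log2 change of the 14 was 0.03 for stimulation, -0.19 for KI against WT, -0.45 for KO against WT and 0.24 for KI against KO, beside -0.12, -0.11, -0.05 and -0.04 over all tested probe sets. In WT cells 3 of the 14 were higher after stimulation by a log2 difference of 1 or more, namely Col4a1, Col6a2 and Col5a2, beside 8.54% of all tested probe sets. In KI and in KO cells 0 of the 14 were, beside 5.58% and 6.54% of all. Col4a1, a chain of basement membrane collagen, had 183 in stimulated and 133 in untreated KI cells and 34.3 and 94.7 in KO cells, against 339 in stimulated and 104 in untreated WT cells. Col6a2, a chain of the microfibrillar type VI collagen, had 231 and 329 in KI cells and 203 and 146 in KO cells, against 374 in stimulated and 162 in untreated WT cells. Col5a2, of the type V collagen that joins type I fibrils, had 55.0 in stimulated and 185 in untreated KI cells and 36.9 and 40.9 in KO cells, against 215 in stimulated and 61.2 in untreated WT cells. These 3 chains were named for their WT change, so their high stimulated WT signals follow from the choice.

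**Figure D4:**
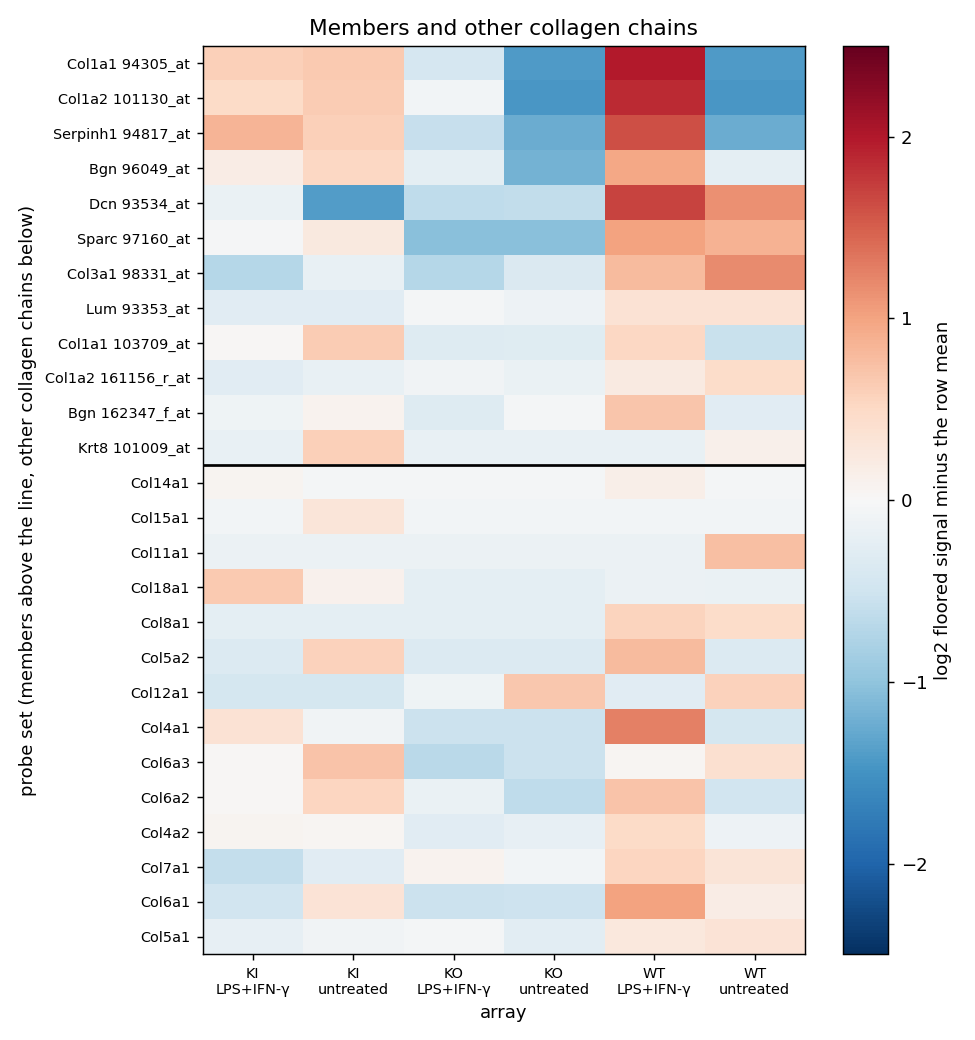
Log2 floored signal minus the row mean for 12 probe sets of the genes described (above the line) and 14 other collagen chains (below it), with 1 column per array. Red is above and blue below the row mean; in the top 3 rows the stimulated WT column is reddest and the untreated KO and WT columns are bluest, and the other chains vary less than these 3 rows.

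Around the collagen genes, single enzymes and signals passed the test for stimulation, for which 5.03% of all tested probe sets were higher and 6.01% lower. Of 11 collagen assembly genes 1 rose, P4ha1, a subunit of the prolyl hydroxylase that stabilises the triple helix. It had 1074 in stimulated and 378 in untreated KI cells and 1075 and 214 in KO cells, against 1300 in stimulated and 234 in untreated WT cells. Its mean log2 change was 2.10 with an SE of 0.26 and a limma adjusted p of 0.0124, made up of 1.51 in KI, 2.33 in KO and 2.47 in WT cells. Of 16 tested matrix proteins outside the collagens 1 rose and 1 fell. Hspg2, the basement membrane proteoglycan perlecan, rose by 2.06 (SE 0.28, limma adjusted p = 0.0163). The untreated KI signal of Hspg2, 83.7, was under the floor, so this size depends on the floor. Tgfbi, a collagen-binding adhesion protein, fell by 2.39 (SE 0.35, limma adjusted p = 0.0201).

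Heat shock genes were listed because Serpinh1 belongs to the heat shock proteins. Of 13 tested, 5 rose and 0 fell with stimulation, and the median log2 change was 0.54. Hspa1b and Hspa1a, the inducible HSP70 chaperones, rose by 3.02 (SE 0.34, limma adjusted p = 0.0107) and 2.83 (SE 0.20, limma adjusted p = 0.00259). Hspa8 and Hsp90aa1, cytosolic chaperones, rose by 1.09 (SE 0.16, limma adjusted p = 0.02) and 0.85 (SE 0.16, limma adjusted p = 0.0368). Hspa1a had 1396 in stimulated and 182 in untreated KI cells and 1253 and 162 in KO cells, against 1223 in stimulated and 200 in untreated WT cells. Hspa1b had 1181 in stimulated and 50.7 in untreated KI cells and 1552 and 155 in KO cells, against 772 in stimulated and 174 in untreated WT cells. Its untreated KI signal was under the floor. Both genes were higher after stimulation in all 3 genotypes.

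Among 17 tested genes of TGF-β and growth factor signalling, 1 rose and 1 fell. Inhba, the activin A subunit, rose by 1.70 (SE 0.33, limma adjusted p = 0.0391), and Pdgfa, a mitogen of fibroblasts, fell by 1.24 (SE 0.17, limma adjusted p = 0.0152). The untreated KO signal of Inhba, 19.7, was under the floor. Of 13 matrix and collagen receptors, Marco, a scavenger receptor, rose by 3.09 (SE 0.61, limma adjusted p = 0.0407). Its untreated signals of 21.1 in KI and 12.1 in KO cells were under the floor. Mrc1, the mannose receptor, which takes up collagen, fell by 2.58 (SE 0.37, limma adjusted p = 0.0184). Its stimulated signals, 79.8 in KI, 82.5 in KO and 75.6 in WT cells, were all under the floor. The sizes and SEs of Inhba, Marco and Mrc1 therefore depend on the floor. In the filament and desmosome list 0 of 14 rose and 1 fell, the nuclear lamin gene Lmna (-1.65, SE 0.13, limma adjusted p = 0.00403). In each of these pathway lists 0 genes passed for a genotype contrast. With any 1 array left out, between 0 and 15 of 9344 probe sets passed for stimulation, so that these calls rest on the full set of 6 arrays.

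The genes whose pattern over the 6 arrays was most like the mean of the 9 probe sets that were above the floor on at least 3 arrays and ranged over at least 1 on the log2 scale were sought among 714 candidates. The mean of the 9, centred per probe set, was 0.12 in stimulated and 0.20 in untreated KI cells and -0.48 and -0.85 in KO cells, against 1.24 in stimulated and -0.22 in untreated WT cells on the log2 scale. Pearson's r with that mean, over 6 arrays that also share the genotype and the stimulus, was highest for Prss30, a serine protease (0.977), and Cyp1b1, a cytochrome P450 (0.921). Prss30 had 230 in stimulated and 246 in untreated KI cells and 101 and 76.7 in KO cells, against 501 in stimulated and 177 in untreated WT cells. Then came the chemokine gene Cxcl5 (0.881), the prostaglandin E synthase gene Ptges (0.862), the C1 inhibitor gene Serping1 (0.862), the long non-coding RNA Xist of X inactivation (0.862), the coagulation factor gene F10 (0.858) and the protease inhibitor gene Slpi (0.844). Xist, which only cells with more than one X chromosome make, had 356 and 473 in KI cells and 241 and 104 in KO cells, against 641 in stimulated and 127 in untreated WT cells. Xist was named for its likeness to the mean of the 9 probe sets, which are not all collagens. The labels do not give the sex of the mice, and what this likeness rests on was not tested. With 6 arrays and 714 candidates, such values describe a likeness of these arrays only.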

How the data were processed

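RNA of peritoneal cells was hybridised to 1 array per group, and the deposited table holds linear signal intensity for 12488 probe sets on 6 arrays. MAS5 was the authors' software for these intensity values, according to the submitters' processing notes; the labels give no version or scaling target. Trimmed means (2% off each end) lay within 500.3 and 500.4, so the arrays were already on 1 scale. Signals were rescaled to the mean of these, floored at the 40th percentile (98.0) and put on the log2 scale. Without 66 control probe sets, 9344 of 12422 exceeded the floor on at least 1 array. Names came from the platform annotation; 10833 probe sets have 1 symbol, 396 several and 1193 none.

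R 4.3.3 with limma 3.58.1 fitted genotype and stimulation additively (eBayes with intensity trend, Benjamini-Hochberg at 0.05). Single arrays were compared by size (log2 difference of 1 or more). Folds against a signal under the floor are lower bounds. In lists a gene is its brightest probe set. Named are the 10 genes with every probe set; up to 4 list genes passing for stimulation; and the 8 genes most alike over the arrays. The code was tested on simulated data. The genes and lists were chosen with earlier results of these data known.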

Additional observations from a re-analysis of the deposited data

Results flagged for a closer look

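Several values moved in opposite directions between genotypes or states, each side by more than 0.235 on the log2 scale, the median residual SD of the fit. With 1 array per group no such difference was tested. With stimulation, Bgn 162347_f_at had a log2 change of -0.28 in KO and 0.99 in WT cells (difference -1.27). Col1a1 103709_at had -0.60 in KI and 1.07 in WT cells (difference -1.67), and Bgn 96049_at -0.33 in KI and 1.20 in WT cells (difference -1.53), or 0.92 in KO cells (difference of KI from KO -1.25).

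KO minus WT was -0.84 in stimulated and 0.24 in untreated cells for Col1a1 103709_at (difference -1.08) and -1.03 and 0.24 for Bgn 162347_f_at (-1.27). KI minus WT was -1.39 in stimulated and 2.07 in untreated cells for Col1a1 94305_at (difference -3.46), -1.38 and 2.08 for Col1a2 101130_at (-3.46), and -0.78 and 1.84 for Serpinh1 (-2.62). The untreated WT signals of these 3 were under the floor, so the untreated values are lower bounds set by the floor, and with the 20th percentile floor they were 3.15, 2.80 and 2.41. For Col1a1 103709_at it was -0.48 and 1.19 (-1.67), for Bgn 96049_at -0.78 and 0.75 (-1.53) and for Bgn 162347_f_at -0.81 and 0.37 (-1.18). KI minus KO of Dcn was 0.46 in stimulated and -0.79 in untreated cells (difference 1.24).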

How the results depend on the processing

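The labels number no replicates, so no replicates could be paired. With genotype in the fit, stimulated and untreated arrays were compared within each genotype. The count of all probe sets passing for stimulation, 1032, was 1635 with a pseudocount of 50 in place of the floor and 69 without the filter on dim probe sets, and 0 to 15 without 1 array. For KO against WT, 0 became 1 with a floor at the 20th percentile or quantile normalization and 7 with the pseudocount, and 0 to 498 without 1 array. For KI against WT, 1 became 0 with a floor at the 60th percentile, with quantile normalization and without the intensity trend, 4 without the filter and 73 with the pseudocount, and 0 to 539 without 1 array. For KI against KO, 0 became 2 with the 20th percentile floor and 14 with the pseudocount. Of the 12 probe sets described, 0 passed in all settings but the pseudocount, which gave 1 for stimulation (Serpinh1) and 1 for KI against WT (Dcn). The values of 498 and 539 were those without the stimulated WT array. The causes were not tested.

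Signs of mean log2 changes that had not passed also turned. With the 20th percentile floor these were Krt8, KI against WT (-0.49) and Col3a1 98331_at, KI against KO (-0.25). With the 60th percentile floor they were Sparc, stimulation (0.04), and for KI against WT Col1a1 94305_at (-0.34), Col1a2 101130_at (-0.33) and Serpinh1 (-0.15). The pseudocount turned Krt8, KI against WT (-0.21) and Col3a1, KI against KO (-0.12). Quantile normalization turned Sparc, stimulation (0.04) and Bgn 96049_at, KI against WT (0.03). Median centring turned Col1a2 161156_r_at (0.09) and Sparc (0.06) for stimulation, Bgn 96049_at (0.32) and 162347_f_at (0.11) for KI against WT, and Dcn (0.05) and Col1a2 161156_r_at (0.11) for KI against KO. It shifted the median of all probe sets for KI against WT to 0.115, against -0.109.

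Without 1 array, values with a turned sign ranged for stimulation from -0.31 to 0.53 for Col1a1 103709_at, -0.14 to 0.06 for Sparc and -0.23 to 0.40 for Bgn 162347_f_at. For KO against WT they ranged from -0.98 to 0.39 for Col1a1 103709_at, -2.67 to 0.26 for 94305_at, -2.32 to 0.38 for Col1a2 101130_at, -1.01 to 0.22 for Bgn 162347_f_at, -0.42 to 0.12 for Krt8 and -2.30 to 0.11 for Serpinh1, the positive values without the stimulated WT array (for Krt8, without the untreated KO array). For KI against WT they ranged from -0.33 to 1.04 for Col1a1 103709_at, -1.13 to 1.81 for 94305_at, -1.0 to 1.70 for Col1a2 101130_at, -0.71 to 0.68 for Bgn 96049_at, -0.83 to 0.40 for 162347_f_at, -0.08 to 0.55 for Krt8 and -0.67 to 1.74 for Serpinh1. For KI against KO they ranged from -0.65 to 0.32 for Dcn, -0.23 to 0.01 for Col1a2 161156_r_at and -0.17 to 0.52 for Bgn 162347_f_at. Dcn, Sparc and Col3a1 98331_at stayed below 0 for KI against WT and KO against WT in every setting run, as did Lum except with the 60th percentile floor, under which it was not tested. Signals near the floor, such as those of Lum and Krt8, carry little information above background.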
